A study of Rattus norvegicus with 14 samples.

Results

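Hox genes encode homeodomain transcription factors that lie in 4 clusters (A to D) on separate chromosomes, and the number in each symbol gives the paralogue group, the gene's place along its cluster. In the embryo, genes of low number are active towards the head and genes of high number towards the tail and limb tips, and cultured vascular cells are known to keep part of the pattern of the segment they came from. The genes described here are every row of the deposited expression tables whose symbol is Hox, a cluster letter and a number. There were 26 such rows among 17312 genes. RefSeq lists 39 rat Hox symbols, and the 13 others were not analysed here. RefSeq also gives Hoxa11 as a synonym of Hoxa2 and Hoxc8 as a synonym of Hoxc9, so the identity of a row rests on the symbol as deposited.

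The RNA was polyadenylated RNA of rat aortic smooth muscle cells (RASMC), commercial cells of the aortic wall grown with serum and then kept serum-free for 24 h. Cells were left unstimulated (0 h, 2 libraries) or treated with PDGF (platelet-derived growth factor, which makes smooth muscle cells divide) at 925 ng/ml for 2 h or 24 h, and further cells received JQ1 at 500 nM for 3 h before PDGF at either time (3 libraries in each of these 4 groups). JQ1 is a small molecule that keeps BET bromodomain proteins, which bind acetylated histones at active genes, off chromatin. Neither JQ1 without PDGF nor unstimulated cells at 2 h and 24 h were analysed here, so PDGF and time in culture enter the comparisons with 0 h together. Title letters A to D mark the libraries that had no JQ1 and E to H those that did. The labels do not explain the letters, and letter and JQ1 cannot be told apart. Nothing in the labels says that replicates were separate cultures, so p-values measure the spread between these libraries, which may be technical.

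Levels are FPKM, fragment numbers scaled to transcript length and sequencing depth, as normalised by the authors. The method is not given. From the values it brings the spiked-in ERCC control transcripts of the libraries together, and the result is called the spike-in scale below. It is not a single factor per library: in PDGF 2 h replicate 1 Hoxb3 went from 6.27 to 8.46 and Hoxd13 from 0.706 to 1.64. Differences are on the log2(normalised FPKM + 1) scale, which understates the change of low genes, and are given with their SE and adjusted p (limma, Benjamini-Hochberg over all 10133 genes tested). Read numbers per library are unknown, and between 9901 and 11503 genes were above 0 in a library. The lowest of these counts belonged to PDGF 2 h replicate 1, whose Spearman correlation with the other libraries of its group was also the lowest of all replicate pairs (0.945 and 0.948, across genes, which are not independent replicates). All 9 smooth muscle markers looked for were above 0 in at least 1 library, with Des at 0 in 1 library of each 2 h group. Their summed FPKM before normalisation ran from 11098 to 11496 in unstimulated cells, 11899 to 12607 at 2 h of PDGF and 1398 to 1663 at 24 h of PDGF. In unstimulated cells that sum was mostly Acta2 and Tagln (means of 5530 and 4244), with Myh11 at 5.28 and Myocd at 5.25. Among markers of other cell types, Cdh5 (endothelium), Ptprc and Cd3e (leukocytes) and Dpt (adventitial fibroblasts) were listed at 0 in every library. Other members of the same lists had clear signal in unstimulated cells, with means of 113 normalised FPKM for Lum and 9.46 for Pdgfra (fibroblasts) and 14.7 for Cd14 (leukocytes).

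Of the 26 Hox genes, 9 were above 0 in at least 1 library and 17 were listed at 0 in all 14 libraries. That is 65.4% of the Hox genes, against 25.5% (4418 genes) of all genes in the table. All 7 HoxC genes present (Hoxc4, Hoxc5, Hoxc8, Hoxc9, Hoxc10, Hoxc11 and Hoxc12) were among those at 0. Cluster A had signal from 1 of its 5 genes (Hoxa2), with Hoxa6, Hoxa9, Hoxa11 and Hoxa13 at 0. Cluster B had signal from 4 of 7 genes (Hoxb3, Hoxb4, Hoxb5 and Hoxb7) and cluster D from 4 of 7 (Hoxd3, Hoxd4, Hoxd9 and Hoxd13). By place along the cluster, 5 of 7 genes of paralogue groups 1 to 4 had signal, 2 of 6 of groups 5 to 8, and 2 of 13 of groups 9 to 13. An exact 0 in an FPKM table can be a failed estimate, so a gene listed at 0 is not shown to be silent. The 6 microRNA loci that lie within the clusters (Mir10a, Mir10b, Mir196a, Mir196b, Mir196c and Mir615) were also at 0 in every library, in RNA selected for poly(A) tails.

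**Figure D1:**
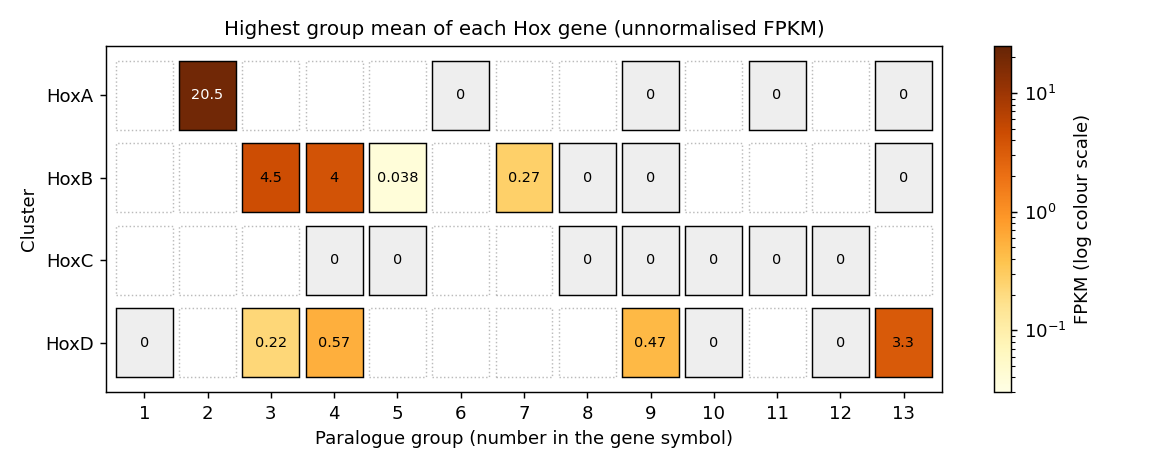
Highest group mean of each Hox gene (FPKM before normalisation, log colour scale), by cluster (rows) and paralogue group (columns). Grey boxes are the 17 genes listed at 0 in all 14 libraries and dotted boxes have no row in the tables. Hoxa2 is the highest, and 5 of the 9 genes with signal lie in paralogue groups 1 to 4.

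A gene was tested where its normalised FPKM reached 1 in at least 2 libraries, and 5 Hox genes did so: Hoxa2, Hoxb3, Hoxb4, Hoxd13 and Hoxd4. Hoxa2, known in the embryo for patterning the hindbrain and the second pharyngeal arch, was the highest, with 23.1 and 17.0 normalised FPKM in the 2 unstimulated libraries, rank 3837 of the 10133 tested genes in that group. Hoxb4 (4.34 and 3.28), Hoxb3 (3.92 and 3.50) and Hoxd13 (3.48 and 3.15) followed, at ranks 8040, 8081 and 8218. The range of Hoxb3 lay within that of Hoxb4, so these neighbours in the order did not differ beyond their spread. Both Hoxd13 values lay below both Hoxb3 values, the nearest being 3.48 and 3.50. Hoxd4 was lowest, with 0.366 and 0.661. It passed the filter only through 2 of the PDGF 24 h libraries (1.56 and 1.20), and it did not pass on a scale centred on the median gene, so its comparisons with that group carry this selection. Just outside the filter stood Hoxd9, whose highest normalised FPKM was 0.555. Before normalisation, the summed FPKM of all 26 genes ran from 28.8 to 36.8 in unstimulated cells, of which Hoxa2 made up 59.0 to 65.2%.

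Hoxa2 and Hoxd13 took different courses over the time series, and their promoter sequences are shown for that reason. The windows run from 250 bases before to 50 bases after the RefSeq start on build GRCr8, which is not the build of the expression tables (rn6). Capitals mark every match, on either strand, to TATAAA for the TATA box, CCAAT for the box of that name, TGACAG for a Meis site, TGATTNAT for a Pbx-Hox site and TGANTCA for an AP-1 site, motifs which were picked with the sequences in view. The windows are chr4:82595643-82595942 (minus strand) for Hoxa2 and chr3:79977827-79978126 (plus strand) for Hoxd13.
Hoxa2: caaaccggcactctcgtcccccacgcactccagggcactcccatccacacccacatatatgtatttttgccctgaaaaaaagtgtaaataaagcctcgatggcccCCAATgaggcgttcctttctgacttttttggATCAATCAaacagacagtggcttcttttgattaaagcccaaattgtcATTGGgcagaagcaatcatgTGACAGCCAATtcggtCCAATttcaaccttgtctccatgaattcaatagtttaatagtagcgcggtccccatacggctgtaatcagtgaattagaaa
Hoxd13: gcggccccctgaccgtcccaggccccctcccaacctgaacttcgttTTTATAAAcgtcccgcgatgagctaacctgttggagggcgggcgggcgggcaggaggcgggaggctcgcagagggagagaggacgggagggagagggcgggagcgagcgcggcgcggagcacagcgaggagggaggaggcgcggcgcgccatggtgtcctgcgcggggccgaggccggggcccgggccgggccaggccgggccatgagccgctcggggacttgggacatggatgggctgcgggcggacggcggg

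The Hoxa2 window held 4 CCAAT matches, which begin 145, 41 and 31 bases before the start on the gene's strand and 67 bases before it on the other strand. It also held a TGACAG match 47 bases before the start, directly ahead of a CCAAT match, and a Pbx-Hox match on the other strand 114 bases before the start (ATCAATCA). None of these matches overlap. Of all 33469 RefSeq rat promoter windows, 37.5% held CCAAT, 19.0% TGACAG and 3.18% TGATTNAT. The Hoxd13 window held overlapping TATAAA matches on both strands, 204 and 202 bases before the start, a motif found in 14.2% of windows. TGANTCA, found in 7.33% of windows, was in neither. The windows also differ in base composition: Hoxa2 had 44.7% G and C bases and 9 CpG dinucleotides, the lowest G and C share of the 13 Hox genes with a window, and Hoxd13 had 74.7% and 36 CpG. The medians over all windows were 51.7% and 7. In the Hoxd13 window the letters ATG stand at the RefSeq start, so the bases after it may be coding sequence. Whether transcription begins at that start was not tested. The Hoxd13 distances and base composition may therefore describe transcribed sequence in part. A match is a description of letters, and binding was not measured.

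PDGF for 2 h went with lower Hoxa2 and Hoxb4 transcript levels, while Hoxb3, Hoxd13 and Hoxd4 did not pass the test. Hoxa2 stood at 23.1 and 17.0 normalised FPKM in unstimulated cells and at 4.94, 6.13 and 5.92 after PDGF for 2 h. The groups did not overlap, and the means (20.1 ± 4.35 SD, n = 2, and 5.67 ± 0.634 SD, n = 3) differed 3.54-fold. The limma difference was -1.65 ± 0.21 (log2, SE; adjusted p = 1.97e-05), the 89th lowest of 10133 genes. Hoxb4, a gene known for its part in blood stem cell renewal, stood at 4.34 and 3.28 in unstimulated cells and at 0.839, 0.209 and 1.02 after PDGF. The library at 0.209 was listed at 0 before normalisation. All 3 PDGF libraries lay below both unstimulated ones, and the difference was -1.53 ± 0.31 (adjusted p = 0.00162). In all, 2 of 5 tested Hox genes fell and none rose, where 12.7% of all tested genes fell and 17.7% rose. With 5 genes the share is coarse and was not tested. The median of the 5 differences was -0.55, against 0.01 over all tested genes.

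Hoxb3, which lies next to Hoxb4 in its cluster, did not share that course in every library. It measured 3.92 and 3.50 in unstimulated cells and 2.05, 8.46 and 2.22 after PDGF for 2 h, so that replicate 1 was above and the others were below every unstimulated value (-0.06 ± 0.44, adjusted p = 0.939). Without that library the difference was -0.59. Hoxd13, at the far end of its cluster and known for patterning the digits, measured 3.48 and 3.15 in unstimulated cells and 2.28, 1.64 and 1.94 after PDGF. The groups did not overlap, but the difference of -0.55 ± 0.27 missed the threshold (adjusted p = 0.143). Hoxd4 gave -0.13 ± 0.33 (adjusted p = 0.809), with ranges that overlapped.

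**Figure D2:**
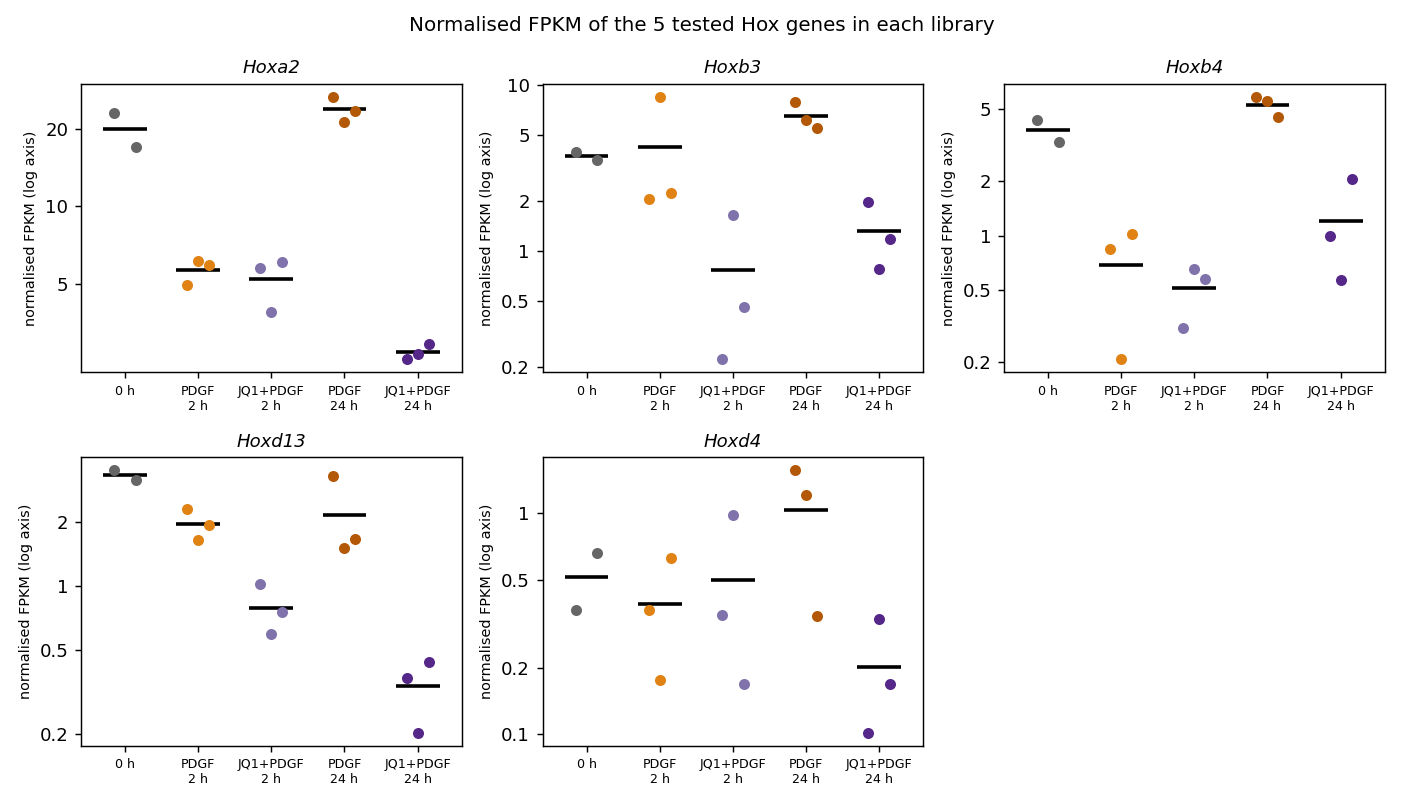
Normalised FPKM (log axes) of the 5 tested Hox genes in each of the 14 libraries, by group. Points are libraries and bars are group means. Hoxa2 and Hoxb4 are low in all 2 h libraries and high again at 24 h of PDGF, and with JQ1 at 24 h all 3 Hoxa2 libraries lie between 2.54 and 2.90.

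After 24 h of PDGF the Hoxa2 and Hoxb4 levels were again in or above the range of unstimulated cells. Hoxa2 measured 26.8, 21.4 and 23.5 (23.9 ± 2.73 SD, n = 3), which overlaps the unstimulated values and lies above every 2 h library. Against 2 h the difference was 1.90 ± 0.19 (adjusted p = 1.05e-06). Hoxb4 measured 5.82, 5.49 and 4.51 (5.27 ± 0.685 SD, n = 3), above every 2 h and every unstimulated library. Before normalisation its 24 h values (3.49, 4.15 and 3.94) overlapped the unstimulated 4.47 and 3.48. The Hoxb4 difference from 2 h was 1.92 ± 0.28 (adjusted p = 4.21e-05). Thus 2 of 5 Hox genes rose between 2 h and 24 h and none fell, where 44.5% of all tested genes rose and 11.8% fell, and the median gene itself moved by 0.395. Hoxb3 measured 7.91, 6.11 and 5.51 at 24 h and its difference from 2 h was 0.72 ± 0.39 (adjusted p = 0.129). Without PDGF 2 h replicate 1, the library with the high Hoxb3 value, it was 1.25 (adjusted p = 0.00299).

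Hoxd13 did not show this return. It measured 3.29, 1.50 and 1.65 at 24 h, where replicate 0 was inside the unstimulated range and the others were near the lowest 2 h value (0.05 ± 0.24 against 2 h, adjusted p = 0.869). Before normalisation the 24 h values were 1.68, 1.002 and 1.52, all below the unstimulated 3.43 and 3.27. Its direction against 2 h depended on the scale and on the libraries. It was -0.14 on the median-centred scale and -0.27 without the pair PDGF 2 h replicate 1 and PDGF 24 h replicate 0. Hoxd4 measured 1.56, 1.20 and 0.344 at 24 h (0.51 ± 0.30 against 2 h, adjusted p = 0.155).

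Set against unstimulated cells, PDGF for 24 h gave no Hox gene past the limma threshold, and none of the 5 had an unadjusted p under 0.05, where 42.6% of all tested genes were called in either direction (37.7% higher and 4.85% lower). Hoxa2 differed by 0.25 ± 0.21 (adjusted p = 0.346), with a 95% interval from -0.19 to 0.69. Hoxb4 differed by 0.39 ± 0.31 (adjusted p = 0.331) and Hoxb3 by 0.66 ± 0.44 (adjusted p = 0.235). On the median-centred scale Hoxa2 was -0.19 and Hoxb4 -0.029, since the median gene differed by 0.41 on the spike-in scale and by 0 on the other. Hoxd13 differed by -0.50 ± 0.27 (adjusted p = 0.152). It passed without PDGF 24 h replicate 0 (-0.75, adjusted p = 0.0339), and Hoxb3 passed when only the groups compared entered the fit (adjusted p = 0.0327). A miss of the threshold does not show that the levels were equal.

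With JQ1 before PDGF, the Hox genes at 2 h split. Hoxb3 and Hoxd13 were lower than with PDGF alone, and Hoxa2 and Hoxb4, already low at that time, did not pass the test. Hoxb3 measured 2.05, 8.46 and 2.22 with PDGF and 0.225, 1.64 and 0.459 with JQ1 and PDGF. The groups did not overlap and the difference was -1.43 ± 0.39 (adjusted p = 0.00828). It was -0.90 (adjusted p = 0.0306) without PDGF 2 h replicate 1. Hoxd13 measured 2.28, 1.64 and 1.94 with PDGF and 1.02, 0.592 and 0.748 with JQ1 and PDGF (-0.73 ± 0.24, adjusted p = 0.0263). Before normalisation its ranges overlapped (2.63, 0.706 and 1.93 against 1.51, 0.407 and 0.927). On the median-centred scale the Hoxd13 difference was -0.47 (adjusted p = 0.199), it missed the threshold when only the groups compared were fitted (adjusted p = 0.053), and it was lost without PDGF 2 h replicate 0 or 2 or JQ1 plus PDGF 2 h replicate 1 or 2 (adjusted p from 0.0588 to 0.0786). In all, 2 of 5 Hox genes fell, where 34.0% of all tested genes fell and 7.24% rose.

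Hoxa2 measured 5.73, 3.88 and 6.08 with JQ1 at 2 h, a range that overlaps the PDGF values. The difference was -0.11 ± 0.19 (adjusted p = 0.662, 95% interval -0.51 to 0.28), and it was 0.18 on the median-centred scale. Hoxb4 measured 0.309, 0.656 and 0.574, within the range of the PDGF libraries (-0.13 ± 0.28, adjusted p = 0.734, 95% interval -0.72 to 0.46). Hoxd4 gave 0.09 ± 0.30 (adjusted p = 0.842).

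At 24 h all 5 tested Hox genes were lower with JQ1 than with PDGF alone, and 4 passed the test. Of all tested genes, 48.5% fell and 4.61% rose. Hoxa2 measured 26.8, 21.4 and 23.5 with PDGF and 2.54, 2.65 and 2.90 with JQ1 and PDGF. The means (23.9 ± 2.73 and 2.70 ± 0.185 SD, n = 3 each) differed 8.86-fold. The JQ1 libraries lay below every other library of the series for this gene, and the difference was -2.75 ± 0.19 (adjusted p = 1e-08), the 167th lowest of 10133. Hoxb3 fell from 7.91, 6.11 and 5.51 to 1.97, 0.784 and 1.19 (-1.72 ± 0.39, adjusted p = 0.00164). Hoxb4 fell from 5.82, 5.49 and 4.51 to 0.990, 0.570 and 2.04 (-1.56 ± 0.28, adjusted p = 0.000218). Hoxd13 fell from 3.29, 1.50 and 1.65 to 0.365, 0.203 and 0.438 (-1.20 ± 0.24, adjusted p = 0.000724). None of these 4 pairs of groups overlapped, but the share of all tested genes with groups apart was not counted.

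Hoxd4 measured 1.56, 1.20 and 0.344 with PDGF and 0.102, 0.331 and 0.170 with JQ1 at 24 h, where the library at 0.102 was listed at 0 before normalisation. Its difference of -0.71 ± 0.30 stood at the threshold (adjusted p = 0.0542). It passed with a pseudocount of 0.1 (-1.78, adjusted p = 0.0409), with no filter (adjusted p = 0.0359), when only the groups compared were fitted (adjusted p = 0.0361) and without PDGF 24 h replicate 2 (adjusted p = 0.0122). It did not pass with a pseudocount of 5 (adjusted p = 0.073), without the pair PDGF 2 h replicate 1 and PDGF 24 h replicate 0 (adjusted p = 0.126) or with any other library of the 2 groups left out (adjusted p up to 0.183). Before normalisation the ranges overlapped, and the gene had passed the filter only through the PDGF group compared here. The background of this comparison was broad: 48.5% of all tested genes fell, 4.61% rose and the median gene differed by -0.48, against a Hox median of -1.56. On the median-centred scale, where the median gene differed by 0 and 25.8% of genes fell, the 4 called Hox genes were again called, at -2.25 for Hoxa2, -1.24 for Hoxb3, -1.10 for Hoxb4 and -0.84 for Hoxd13. Markers of other cells moved in the same comparison. The summed FPKM of the 6 adventitial fibroblast markers, mostly Lum, fell from 95.7 to 115 with PDGF to 6.10 to 8.44 with JQ1, and 3 of its 3 tested genes fell. The leukocyte sum was 36.9 to 52.9 with PDGF and 9.53 to 17.1 with JQ1, where Cd14 fell (-3.49) and Cd68 rose (2.33), and the endothelial sum was 0.992 to 1.67 and 0.0637 to 0.239. Further, all 9 smooth muscle markers fell, and their sum was 426 to 497. The part of any of these in the Hox differences was not tested. In such bulk libraries fewer cells of a type and less RNA per cell cannot be told apart.

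**Figure D3:**
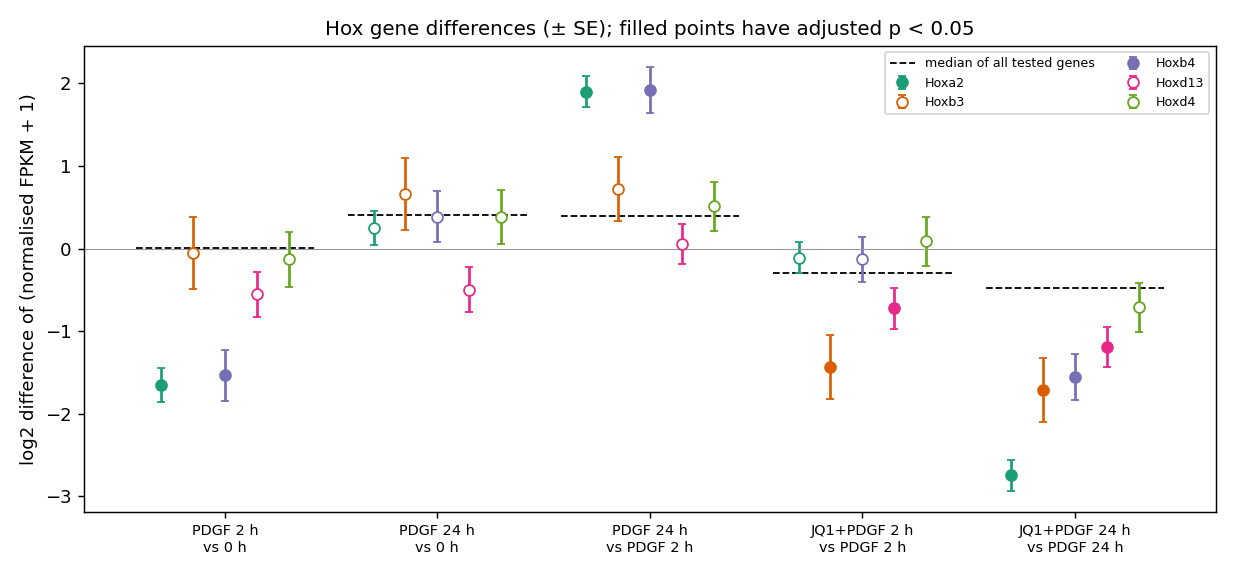
Log2 difference (± SE, limma) of each tested Hox gene in the 5 comparisons. Filled points passed at an adjusted p under 0.05 and dashed lines mark the median of all 10133 tested genes. All 5 Hox genes lie below that median for JQ1 at 24 h, where Hoxa2 stands at -2.75. Hoxd4 passed the filter only through the PDGF 24 h group, the reference of that comparison.

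Whether the JQ1 difference itself changed between the times was tested as an interaction, the difference at 24 h minus that at 2 h. Hoxa2 gave -2.64 ± 0.26 (adjusted p = 4.45e-06), the 75th lowest of 10133, and Hoxb4 -1.43 ± 0.39 (adjusted p = 0.016). These 2 of 5 compare with 17.5% of all tested genes in that direction, 4.82% in the other and a median of -0.22. The Hoxb4 call was lost on the median-centred scale (-1.05, adjusted p = 0.0773, where 16.4% of all genes were called in that direction), with a pseudocount of 0.1 (-1.99, adjusted p = 0.0682) and without JQ1 plus PDGF 24 h replicate 1 (adjusted p = 0.0512). With PDGF alone at 2 h, Hoxb4 had a mean of only 0.690 normalised FPKM, and 1 library was at 0 before normalisation. That left little room for a fall with JQ1 at 2 h, and the part of this low level in the Hoxb4 interaction was not tested. Hoxb3 gave -0.29 ± 0.55 (adjusted p = 0.759) and Hoxd13 -0.47 ± 0.35 (adjusted p = 0.361), so for these a change of the JQ1 difference with time was not shown. Both genes that passed are those that fell at 2 h of PDGF, and the libraries are shared: the PDGF 2 h group enters that fall and the interaction, and the PDGF 24 h group enters the rise from 2 h and the difference with JQ1.

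The 4 Hox genes with signal that stayed below the filter are given as FPKM before normalisation, with no test. Hoxb7 measured 0.180 and 0.363 in unstimulated cells, was listed at 0 in all 6 libraries of 2 h, and measured 0, 0.212 and 0.305 at 24 h of PDGF and 0.239, 0.128 and 0 with JQ1. Hoxd9 measured 0.449 and 0.491 in unstimulated cells, 0.141, 0 and 0 at 2 h of PDGF and 0, 0.0637 and 0 with JQ1 at that time. At 24 h Hoxd9 measured 0.219, 0.176 and 0.524 with PDGF and 0, 0.0797 and 0.303 with JQ1. Both genes were above 0 in each unstimulated library and at 0 in most libraries of 2 h. Hoxd3 measured 0.313 and 0.132 in unstimulated cells, at most 0.131 with PDGF at 2 h, at most 0.0922 with PDGF at 24 h, and was above 0 in only 1 of the 6 JQ1 libraries (0.0302). Hoxb5 was above 0 in a single library, PDGF 2 h replicate 0 (0.114). The summed FPKM of all 26 genes was 11.3 to 12.0 at 2 h of PDGF, 7.55 to 9.99 with JQ1 at 2 h, 27.1 to 30.1 at 24 h of PDGF and 5.31 to 8.18 with JQ1 at 24 h.

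Hox proteins bind DNA together with TALE homeodomain partners of the Pbx, Meis and Pknox families. Of 9 such cofactor genes looked for, 7 were tested, among them Meis1 with 26.6 and 34.1 normalised FPKM in unstimulated cells, above both Hoxa2 values. At 2 h of PDGF 1 of 7 passed, Pbx3 (-0.64 ± 0.22, adjusted p = 0.0373), where 12.7% of all tested genes fell. On the median-centred scale 3 were lower, where 3970 of all 9980 tested genes were called in either direction. Between 2 h and 24 h, 4 rose (Meis2 1.58, Meis3 1.14, Pbx3 0.90 and Pbx2 0.70) and none fell, where 44.5% of all tested genes rose. Against unstimulated cells 3 were higher at 24 h (Meis2 1.03, Meis3 0.95 and Pbx2 0.55), where 37.7% of all tested genes were higher. But on the median-centred scale, where 14.8% of all tested genes were higher and 13.4% lower, none was higher and 1 was lower. With JQ1, 3 of 7 fell at 2 h and 5 of 7 at 24 h, where 34.0% and 48.5% of all tested genes fell. Median-centred, 3 were lower and 1 was higher at each time, where 21.5% of all tested genes were lower and 20.1% higher at 2 h, and 25.8% and 23.1% at 24 h.

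Pbx2 was the cofactor with the largest JQ1 difference at both times. It measured 12.9, 16.8 and 16.6 with PDGF and 4.63, 3.94 and 3.36 with JQ1 at 2 h (-1.72 ± 0.18, adjusted p = 4.28e-06). At 24 h it measured 22.2, 26.8 and 28.1 with PDGF and 7.40, 6.31 and 5.92 with JQ1 (-1.82 ± 0.18, adjusted p = 6.15e-07). The groups were apart at both times. Pbx3 differed at 24 h (-1.54 ± 0.20) and its interaction passed (-1.16 ± 0.28, adjusted p = 0.00696). It was the only 1 of 7 tested cofactors to pass there, where 17.5% of all tested genes were lower. On the spike-in scale Meis1 and Pknox1 passed in no comparison. After median-centring Pknox1 was higher with JQ1 at 2 h (0.81, adjusted p = 0.0453) and 24 h (1.04, adjusted p = 0.0112), and Meis1 was lower than in unstimulated cells at 2 h (-0.43) and 24 h (-0.56) of PDGF.

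**Figure D4:**
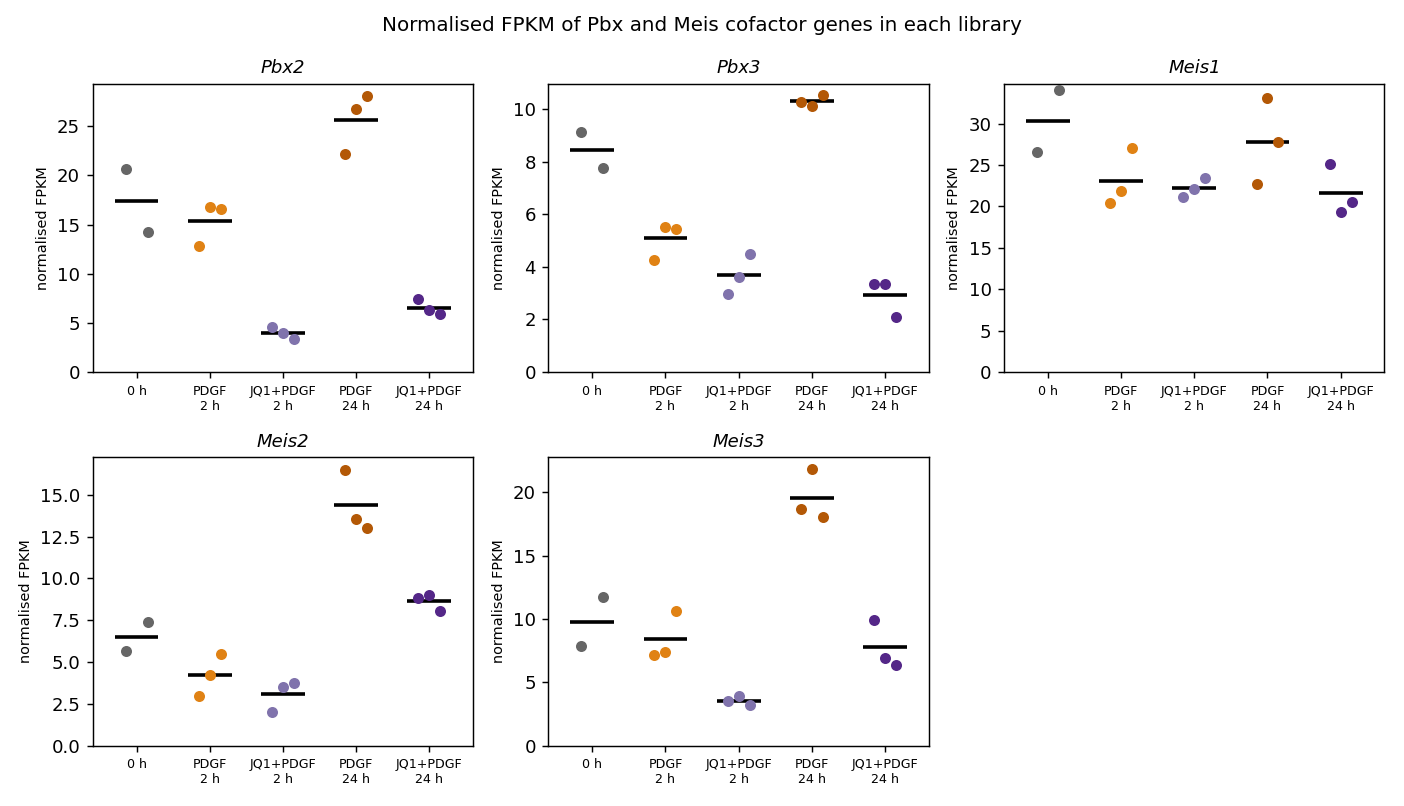
Normalised FPKM of 5 Pbx and Meis cofactor genes in each library, by group. Points are libraries and bars are group means. Pbx2 lies between 3.36 and 7.40 in all 6 libraries with JQ1 and at 12.9 or more in all others.

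Polycomb and trithorax proteins are known to hold Hox clusters in a silent or an active state. Of 24 genes of this kind looked for, 18 were tested. At 2 h of PDGF 5 rose and 6 fell, where 17.7% of all tested genes rose and 12.7% fell. Kdm6b, which removes the Polycomb mark on histone H3, rose from a mean of 8.56 ± 1.23 to 54.2 ± 9.06 normalised FPKM (SD, n = 2 and 3; log2 difference 2.52, adjusted p = 8.96e-08). Cbx8, a reader of that mark, fell from 14.1 ± 0.0497 to 1.96 ± 1.40 (-2.46), and Ezh1, a subunit that writes it, fell from 10.4 ± 1.82 to 3.27 ± 0.499 (-1.42). Between 2 h and 24 h, 10 rose and 2 fell, among them Cbx8 (2.54), Ezh1 (1.84) and Kdm6b (-1.69). Of all tested genes, 44.5% rose and 11.8% fell. On the median-centred scale the split between the times was 5 higher and 5 lower, against 26.6% and 25.8% of all tested genes. With JQ1, 3 rose and 6 fell at 2 h, and 1 rose (Phc2, 0.56) and 8 fell at 24 h (Cbx6 -1.79, Phc1 -1.66 and Bmi1 -0.96 among them), where 7.24% of all tested genes rose and 34.0% fell at 2 h, and 4.61% and 48.5% at 24 h. Median-centred, the split at 2 h was 5 higher and 5 lower, against 20.1% and 21.5% of all tested genes. At 24 h the split was 5 higher and 3 lower, against 23.1% and 25.8%, so the direction for the group depended on the scale.

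Retinoic acid is known to activate Hox genes of low number through its receptors. Of 17 genes of its synthesis, breakdown and reception looked for, 13 were tested. At 2 h of PDGF 3 rose and 3 fell, where 17.7% of all tested genes rose and 12.7% fell. Aldh1a3, which makes retinoic acid, rose by 2.06 and Cyp26a1, which degrades it, by 1.45, both from levels at or near 0. The receptors Rxra and Rarb fell by 0.92 and 0.86. Mean normalised FPKM of the receptor Rxrb was also lower, at 19.97 in unstimulated cells and 12.2 at 2 h of PDGF. The means of Rara (18.1 and 31.3) and Rarg (34.4 and 41.3) were higher at 2 h, so the receptors did not share a direction. Between 2 h and 24 h 7 rose and 3 fell, with Rxra at 2.03 and Aldh1a2 at -3.03, where 44.5% of all tested genes rose and 11.8% fell. Median-centred, the counts were 4 higher and 3 lower, against 26.6% and 25.8% of all tested genes. With JQ1 1 rose and 7 fell at 2 h, and none rose and 6 fell at 24 h, the latter a share near the 48.5% of all tested genes that fell (34.0% at 2 h). Those that fell at 24 h included Dhrs3 (-1.78), Rarb (-1.59) and Rxra (-1.40). On the median-centred scale 6 of 12 tested genes of the list fell at 24 h, where 25.8% of all tested genes fell. Rarb measured 2.79 ± 0.377 in unstimulated cells, 1.09 ± 0.271 at 2 h and 3.69 ± 1.65 at 24 h of PDGF, and 0.504 ± 0.183 with JQ1 at 24 h (normalised FPKM, SD).

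Genes that lie beside the clusters were also followed. Of 12 looked for, 9 had a row and 5 were tested (Skap2, Hibadh, Smug1, Mtx2 and Snx10). Evx1, the homeobox gene at the end of cluster A, was listed at 0 in every library. At 2 h of PDGF 3 of 5 fell (Smug1 -0.998, Hibadh -0.51 and Snx10 -0.47), where 12.7% of all tested genes fell. With JQ1 at 24 h 3 of 5 fell on the spike-in scale (Mtx2 -0.69, Snx10 -0.61 and Skap2 -0.45), where 48.5% of all tested genes fell. On the median-centred scale none fell and Hibadh was higher (0.45), where 25.8% of all tested genes fell and 23.1% rose. The corresponding median-centred Hoxa2 difference was -2.25.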

How the data were processed

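RNA-seq of rat aortic smooth muscle cells was deposited as 2 tables of FPKM, one unnormalised and one normalised, both made by the authors. Reads were 40 base single ends of a stranded kit, per the labels' protocols, and HISAT and Cufflinks 2.0.0 on build rn6 were used, per the submitters' processing notes. The annotation and the method of normalisation are not given in the sources used here. ERCC spike-ins had been added in a dilution set by how much RNA a set number of cells gave, per the labels, and from the values the normalised FPKM bring the spike-ins of the libraries together and turn a 0 into a small positive value. Depth is unknown, so low values carry no interval.

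Columns were assigned to groups by name. A library is called by its group and the digit of its column, which the titles do not carry. The tables had 0 columns without a group. Genes with at least 1 normalised FPKM in at least 2 libraries (10133) were tested on log2(normalised FPKM + 1) with limma 3.58.1 (R 4.3.3), in 1 model over 5 groups with 9 residual degrees of freedom and a mean trend, at an adjusted p under 0.05. The code was tested on simulated data. For a median-centred scale, the unnormalised values were divided by a size factor per library, computed over 9129 genes, and 9980 genes were tested. Other settings were other pseudocounts, filters and sample sets. Every Hox row is a member. Of each list up to 4 genes with the largest differences past the threshold, or with the highest levels, may be named. In addition, Hibadh, Meis1, Pknox1, Ezh1, Bmi1, Evx1, Rara, Rarg and Rxrb were in part named after their values were seen. Some list genes are not reported here. Members and lists were chosen with earlier results of these data known.

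Promoter windows come from RefSeq (GRCr8), with an entry for 13 of the 26 Hox genes. Hoxb3 and Hoxb4 had none.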

Additional observations from a re-analysis of the deposited data

Results flagged for a closer look

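For 2 of 5 tested Hox genes the JQ1 difference passed a test of its change between 2 h and 24 h (the limma interaction, Benjamini-Hochberg adjusted over 10133 genes). In the same test 17.5% of all tested genes were lower and 4.82% higher. For Hoxa2 the difference at 24 h minus that at 2 h was -2.64 (SE 0.26, adjusted p = 4.45e-06). All 3 JQ1 libraries lay below all 3 PDGF libraries at 24 h, and the ranges overlapped at 2 h. For Hoxb4 it was -1.43 (SE 0.39, adjusted p = 0.016), again with all 3 JQ1 libraries below all 3 PDGF libraries at 24 h and overlapping ranges at 2 h. The Hoxb4 mean with PDGF alone at 2 h was only 0.690 normalised FPKM, which left little room for a fall with JQ1 at that time. The part of this low level in the Hoxb4 result was not tested. The Hoxb4 result did not pass on the median-centred scale (-1.05, adjusted p = 0.0773), with a pseudocount of 0.1 (adjusted p = 0.0682) or without JQ1 plus PDGF 24 h replicate 1 (adjusted p = 0.0512), whereas Hoxa2 passed under every setting run.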

How the results depend on the processing

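No paired analysis was possible because the columns carry digits and no title letters. Under every setting run, including each library left out in turn, these calls stayed: Hoxa2 at 2 h of PDGF, between 2 h and 24 h, with JQ1 at 24 h and in the interaction; Hoxb4 at 2 h of PDGF, between the times and with JQ1 at 24 h; Hoxb3 with JQ1 at both times; and Hoxd13 with JQ1 at 24 h. Where a direction turned or a call was gained or lost, the cause was not tested. On the median-centred scale the sign turned for Hoxa2 (-0.19) and Hoxb4 (-0.029) at 24 h of PDGF against 0 h, Hoxd13 between 2 h and 24 h (-0.14), Hoxa2 with JQ1 at 2 h (0.18) and Hoxb3 in the interaction (0.063, and 0.062 with a pseudocount of 0.1). Hoxb3 at 2 h of PDGF was 0.017 with a pseudocount of 5. Leaving out the pair of libraries PDGF 24 h replicate 0 and PDGF 2 h replicate 1, Hoxd13 between the times was -0.27 and Hoxd4 with JQ1 at 2 h -0.028, and Hoxb3 passed between the times (1.12, adjusted p = 0.0114).

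The count of Hox genes called at 24 h of PDGF against 0 h was 1 without that pair of libraries (Hoxd13) and 1 with only the groups compared (Hoxb3), against 0. With JQ1 at 2 h it was 1 on the median-centred scale and 1 with only the groups compared, against 2, and in the interaction 1 on the median-centred scale and 1 with a pseudocount of 0.1, against 2. The count of all genes called was 1537 with only the groups compared at 2 h of PDGF (3078 in the fit of 5 groups) and 2819 on the median-centred scale at 24 h against 0 h (4314).

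With 1 library left out, the count of all genes called ran from 1601 to 3154 at 2 h of PDGF, 2489 to 3909 at 24 h against 0 h, 4975 to 5783 between the times, 3437 to 4492 and 4423 to 5537 with JQ1 at 2 h and 24 h, and 1720 to 2566 in the interaction. The Hox count ran from 2 to 2, 0 to 1, 2 to 3, 1 to 2, 4 to 5 and 1 to 2 in that order. Differences that took both signs were Hoxb3 (-0.59 to 0.23) and Hoxd4 (-0.27 to 0.013) at 2 h of PDGF, Hoxd13 between the times (-0.19 to 0.20), Hoxa2 (-0.21 to 0.055), Hoxb4 (-0.36 to 0.014) and Hoxd4 (-0.14 to 0.25) with JQ1 at 2 h, and Hoxb3 in the interaction (-0.82 to 0.042). Hoxd4 passed between the times without PDGF 24 h replicate 2 (adjusted p = 0.0372). Where an unstimulated library was left out, the lone library was assumed to vary like the other groups. The number of Hox genes whose highest group mean reached a threshold was 6 at 0.5 and 4 at 2 normalised FPKM, against 5 at 1. Before normalisation the highest group mean of Hoxd4 was 0.568, below 1. With no read numbers, a Hox gene at 0 cannot be told from one below detection.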
